A study of Homo sapiens with 4 samples.

Results

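The regions described are the accessible chromatin sites around 34 interferon-stimulated genes in SKBR3 cells, an established HER2-positive breast cancer line. The genes were taken from a fixed list by their GENCODE release 44 names, and all 34 were found. Sites were made by merging the peaks of 4 ATAC-seq lists that overlapped by at least 1 bp. A site belonged to the set when it lay within 50 kb of any annotated transcript start of a listed gene, which gave 584 of 307691 sites. Where a peak was present, its level was given as its rank percentile within its own list, with 100 as the strongest peak.

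ATAC-seq maps open chromatin with the Tn5 transposase, and peak lists of 2 untreated and 2 TWEAK libraries were compared. All cells were starved for 8 h before the 48 h experiment, and the TWEAK group received the cytokine TWEAK at 10 ng/ml with fresh TWEAK after 24 h. TWEAK signals through the receptor Fn14 and activates NF-κB. The comparison addresses whether TWEAK changes accessibility around genes of the interferon response in this single line, whose libraries the methods describe as biological replicates.

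Interferons bind receptors that signal through JAK kinases and the complex ISGF3, which contains STAT2 and IRF9. ISGF3 and other IRF proteins bind the interferon-stimulated response element (ISRE) in promoters of these genes, whereas GAS elements serve mainly the response to interferon-gamma. The listed genes encode the factors themselves, sensors of viral RNA, proteins that restrict viruses at entry or replication, and the ubiquitin-like ISG15 with its enzymes. NF-κB and IRF sites occur side by side in a number of cytokine and antiviral genes.

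To show where ISRE-like matches lie, sequence upstream of RefSeq starts (GRCh38.p14) is given 5′ to 3′ on the strand of the gene. An ISRE-like match was GAAANNGAAA on either strand, overlapping matches were counted separately, and matches are in capitals. The first lines are OAS3, IFI6, SAMD9 and IFITM3, whose promoter peaks ranked higher in both TWEAK libraries. The OAS3 stretches are limited to 30 bases each because longer transcripts start upstream of the RefSeq start. Stretches of the remaining genes begin 160 bases before the start and end at the last base outside annotated exons.
OAS3 upstream match, chr12:112938321-112938350, plus strand: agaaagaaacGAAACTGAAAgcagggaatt
OAS3 last 30 bases before the start, chr12:112938444-112938473, plus strand: gttcggagagccgggcggGAAAACGAAAcc
IFI6, chr1:27672213-27672352, minus strand: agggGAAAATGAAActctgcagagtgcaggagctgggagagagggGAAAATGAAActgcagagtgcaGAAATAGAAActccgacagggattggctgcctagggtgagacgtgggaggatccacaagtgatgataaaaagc
SAMD9, chr7:93118024-93118139, minus strand: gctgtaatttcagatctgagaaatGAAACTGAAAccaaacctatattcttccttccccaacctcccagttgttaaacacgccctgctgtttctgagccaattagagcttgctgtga
IFITM3, chr11:320861-321020, minus strand: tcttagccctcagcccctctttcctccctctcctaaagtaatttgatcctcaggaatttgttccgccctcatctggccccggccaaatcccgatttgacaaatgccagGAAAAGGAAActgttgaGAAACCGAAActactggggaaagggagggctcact
The promoter stretches of ISG15 and IFIT1 also hold ISRE-like matches. The IFIT1 promoter peak ranked lower in both TWEAK libraries, whereas the peak over the ISG15 stretch overlapped between groups by rank.
ISG15, chr1:1013337-1013496, plus strand: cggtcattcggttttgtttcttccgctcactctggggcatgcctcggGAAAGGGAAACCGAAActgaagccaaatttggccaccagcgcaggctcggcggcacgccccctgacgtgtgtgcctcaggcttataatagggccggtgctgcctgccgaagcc
IFIT1, chr10:89392463-89392545, plus strand: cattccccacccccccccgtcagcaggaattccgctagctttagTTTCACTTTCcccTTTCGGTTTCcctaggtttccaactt
IFIT3, IFI27 and IFI44 hold such matches as well, but no list had a peak over their start windows.
IFIT3, chr10:89327837-89327940, plus strand: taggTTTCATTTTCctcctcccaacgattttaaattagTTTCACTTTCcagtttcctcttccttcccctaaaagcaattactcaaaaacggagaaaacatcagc
IFI27, chr14:94110576-94110677, plus strand: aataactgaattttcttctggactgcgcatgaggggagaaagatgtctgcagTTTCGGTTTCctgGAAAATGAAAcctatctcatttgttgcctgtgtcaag
IFI44, chr1:78649629-78649788, plus strand: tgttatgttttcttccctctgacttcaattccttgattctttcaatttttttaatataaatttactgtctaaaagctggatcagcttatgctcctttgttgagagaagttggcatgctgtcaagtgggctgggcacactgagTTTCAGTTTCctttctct
STAT2 had the highest promoter rank of the 34 genes and no match in its stretch.
STAT2, chr12:56360204-56360267, minus strand: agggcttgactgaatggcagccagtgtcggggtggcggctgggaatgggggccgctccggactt

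Of the 34 genes, 27 were found in the RefSeq promoter table, and IRF7, IFIT2, OAS2, OASL, MX2, IFITM2 and USP18 were not. In the 300 bases from 250 before to 50 after the start, 17 of the 27 (63.0%) held an ISRE-like match, against 3.58% of 34961 promoters. A GAS match, TTCNNNGAA on both strands, was in 7 of the 27 (25.9%) against 7.66% of all promoters. An NF-κB match was in 7 of the 27 (25.9%) against 11.3%. The genes were chosen as interferon-stimulated genes, so these shares describe the list. The window was overlapped by a peak in all 4 libraries for 19 of the 27 genes, for 13 of the 17 with an ISRE-like match, and in no library for IFIT3, IFI27, IFI44 and SAMD9L. Among these 4 closed windows, 3 held an ISRE-like match, so the letters alone did not separate open from closed starts. The closed windows held a median of 2 CpG dinucleotides, against 11.5 in the windows open in 1 to 3 libraries and 9 in those open in all 4. Across the 27 genes, the CpG count of the window and the mean promoter rank had a Spearman rho of 0.46, as a description over genes that share the same 4 libraries. That rank is of the strongest site within 1 kb of any start, and a list without a peak counted as 0. At OAS1, ISG15 and BST2, among others, this strongest site is not the one over the window.

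A list had from 195388 (TWEAK replicate 2) to 228734 peaks (untreated replicate 2), all of equal width. Depth was read from the background pileup recovered from the peak values, which was 3.59 and 2.24 in the untreated and 2.63 and 1.85 in the TWEAK libraries. TWEAK replicate 2 was thus the shallowest and its weakest peak stood 3.79-fold over background, against 2.79- to 3.13-fold in the other 3 libraries. Of all sites shared by the 4 lists, 35.4% ranked lower and 15.8% higher in both TWEAK libraries, while by raw fold over background 12.2% were lower and 34.8% higher. The median raw fold of all shared sites was 12.5 and 14.8 in the untreated and 15.6 and 16.8 in the TWEAK libraries. Raw folds of single sites and their ratios below include this shift. Single sites were also read on 3 further scalings (the rank among shared sites, and the log2 value and log2 fold centred on the shared sites). Of the luminal markers, KRT8, KRT18, KRT19, EPCAM and ERBB2 had promoter peaks in all 4 libraries and CDH1 had one in none. VIM, ZEB1, CD14 and CDH5, markers of other cell types, also had promoter peaks in all 4, whereas CD3E had none and PTPRC, CDH2 and PECAM1 had them in 1 or 2 libraries. Their part in the results was not tested.

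In untreated cells the interferon-stimulated genes already ranged from among the most open promoters of the genome to closed. A peak within 1 kb of a start was present in all 4 libraries for 26 of the 34 genes. OAS2, MX2 and IFI44L had one in 3 libraries, and SAMD9L, IFI27 and XAF1 had a single weak peak in TWEAK replicate 1 only. IFIT3 and IFI44 had none in any library, and their nearest sites lay 24924 and 10304 bp from a start. Promoter site below means the site within 1 kb of a start with the highest mean rank, which can also serve a neighbouring gene.

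**Figure D1:**
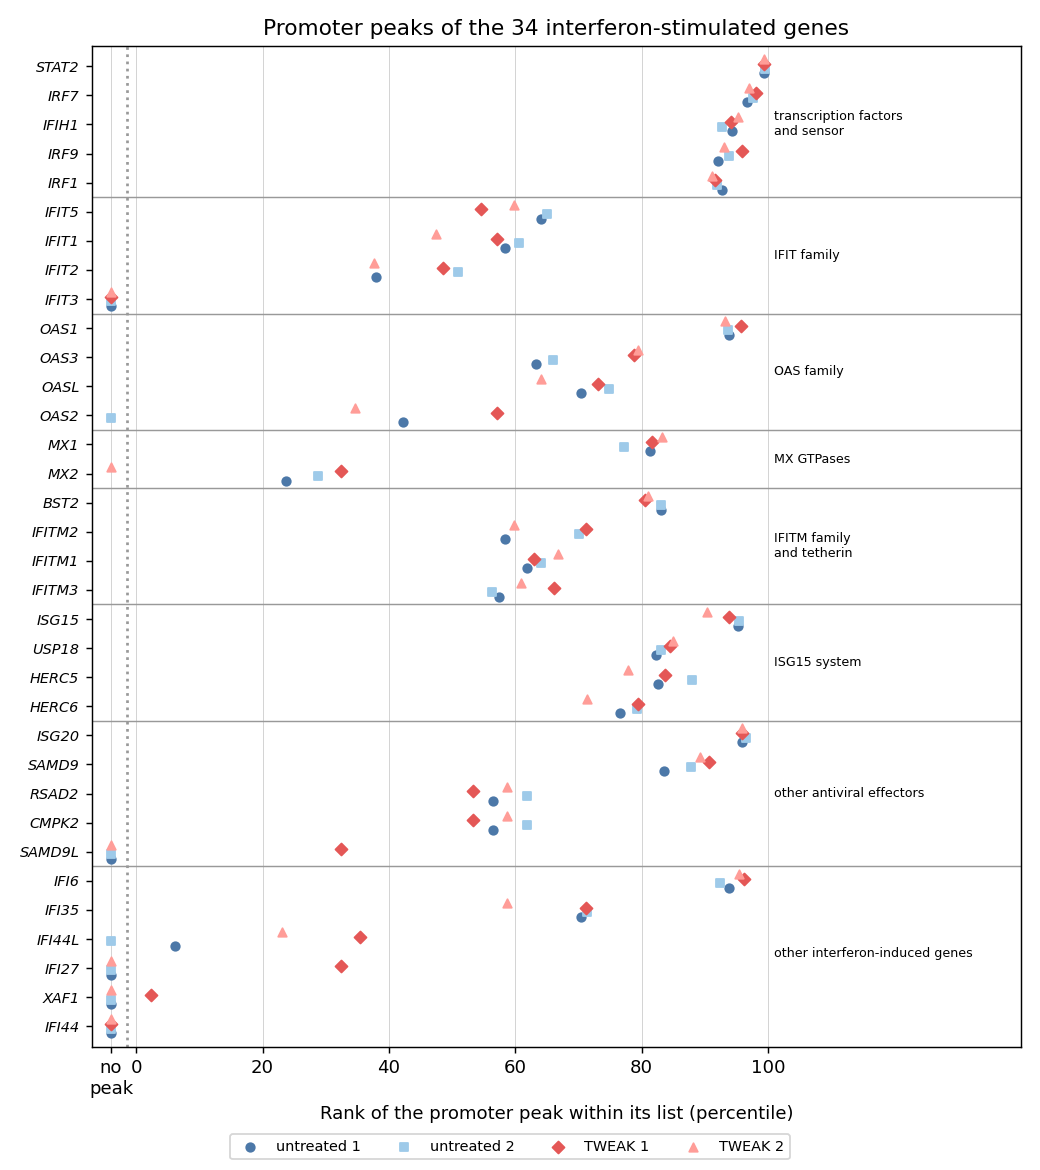
Rank percentile of the promoter peak (horizontal axis) for each of the 34 genes, grouped by role, with 1 symbol per library and symbols at the left for a list without a peak. Transcription factors lie above 90 in every library, the IFIT genes lie near 65 or lower, and of the promoters open in all 4 libraries OAS3 shows the widest gap between untreated (63.3 and 66.0) and TWEAK (78.7 and 79.5) libraries.

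The promoters of the genes for transcription factors and the RNA sensor all ranked above 90 in every library, as did those of ISG20, IFI6, OAS1 and ISG15. STAT2, a subunit of ISGF3, ranked 99.4 and 99.6 in the untreated and 99.4 and 99.4 in the TWEAK libraries. IRF7, which drives the interferon-alpha genes, ranked 96.7 and 97.7, then 98.1 and 97.0. IRF9, the DNA-binding subunit of ISGF3, ranked 92.1 and 93.8, then 95.9 and 93.1 at a promoter shared with RNF31. The TWEAK ranks of these 3 genes overlapped the untreated ones, although STAT2 lay lower in both TWEAK libraries on the log2 value and log2 fold scalings and IRF9 lay higher in both on the rank among shared sites. IRF1, an early interferon-gamma target that is also an NF-κB target, ranked 92.8 and 92.0, then 91.6 and 91.2, so that both TWEAK libraries lay lower by rank, by 0.98 points on average, and on both log2 scalings. A further IRF1 promoter site ranked 55.3 and 56.4, then 40.6 and 27.3. It fell by 21.9 points and lay lower in both TWEAK libraries on all 4 scalings. IFIH1, the cytosolic sensor of long double-stranded RNA, ranked 94.3 and 92.8, then 94.2 and 95.2 at a promoter shared with GCA. At this group of genes 75 sites were present in all 4 libraries.

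The IFIT genes, whose proteins bind viral RNA that lacks the host cap, were low or closed. IFIT1 ranked 58.4 and 60.6 in the untreated and 57.0 and 47.4 in the TWEAK libraries, a mean difference of -7.26 points. IFIT5 ranked 64.0 and 65, then 54.6 and 59.8 at a promoter shared with LIPA, a mean difference of -7.32 points. Both genes were lower in both TWEAK libraries, for IFIT1 on all 4 scalings and for IFIT5 by rank only. IFIT2 ranked 38.0 and 51.0, then 48.6 and 37.7, and its groups overlapped. Of all shared sites in the genome, 74.2% had a higher rank change than the IFIT1 promoter. Among the 13 shared sites of the IFIT cluster, 8 ranked lower and 3 higher in both TWEAK libraries, against 35.4% and 15.8% of all shared sites. On all 4 scalings at once, 4 of the 13 lay lower and 3 higher, against 26.9% and 13.6% of all shared sites.

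OAS1, OAS2 and OAS3 encode oligoadenylate synthetases, which sense double-stranded RNA and activate RNase L, and OASL was grouped with them. OAS3 had ranks of 63.3 and 66.0 in the untreated and 78.7 and 79.5 in the TWEAK libraries. With 1 site per gene, the strongest, this was the largest rank difference among promoters open in all 4 libraries. The OAS3 pileup stood 11.2- and 13.0-fold over background in untreated cells and 24.3- and 30.3-fold in TWEAK-treated cells, a ratio of means of 2.26. The groups did not overlap on any of the 4 scalings, the mean rank difference was 14.5 points, and 5.10% of all shared sites rose by more. OAS1 had 2 promoter sites that behaved differently. The site over its RefSeq start ranked 47.4 and 53.0, then 61.2 and 66.8, a rise of 13.8 points, whereas the stronger site 712 bp from an alternative start ranked 93.9 and 93.6, then 95.8 and 93.3. OAS2 had a peak in untreated replicate 1 (42.2) and in both TWEAK libraries (57.0 and 34.6), but none in untreated replicate 2. OASL ranked 70.4 and 74.8, then 73.2 and 64.1, and its groups overlapped.

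Around OAS1, OAS3 and OAS2, which lie next to each other on chromosome 12, 13 of 26 sites were present in all 4 libraries. Of these 13, 4 rose by 10 points or more with no overlap between groups (30.8%, against 7% of all shared sites), and all 4 did so on every scaling. They were the OAS1 and OAS3 starts, a site in an OAS1 exon (chr12:112932364-112932884, ranks 45.8 and 37.4, then 58.2 and 57.3) and a site in an OAS3 intron. The OAS3 intron site, chr12:112943945-112944479, showed the largest rise of the 268 shared sites around interferon-stimulated genes. It ranked 30.3 and 9.60 in the untreated and 61.2 and 66.0 in the TWEAK libraries, and its pileup rose from 4.74- and 3.58-fold to 12.2- and 17.9-fold over background. One weak gained site lay in an OAS3 exon between the promoter and this intron site (ranks 29.2 and 2.52 in the TWEAK libraries). In OAS2, the direction was the opposite at an intron site, chr12:112992778-112993289, with ranks of 65.4 and 68.5, then 54.6 and 47.4. The cluster was singled out after its values were seen. The intron site holds an NF-κB and an AP-1 match in its best peak, and the stretch around the NF-κB match is shown on the plus strand of hg38 with the match in capitals.
OAS3 intron, chr12:112944201-112944320: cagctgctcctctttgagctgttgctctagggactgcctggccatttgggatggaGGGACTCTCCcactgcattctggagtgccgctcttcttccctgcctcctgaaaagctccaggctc

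**Figure D2:**
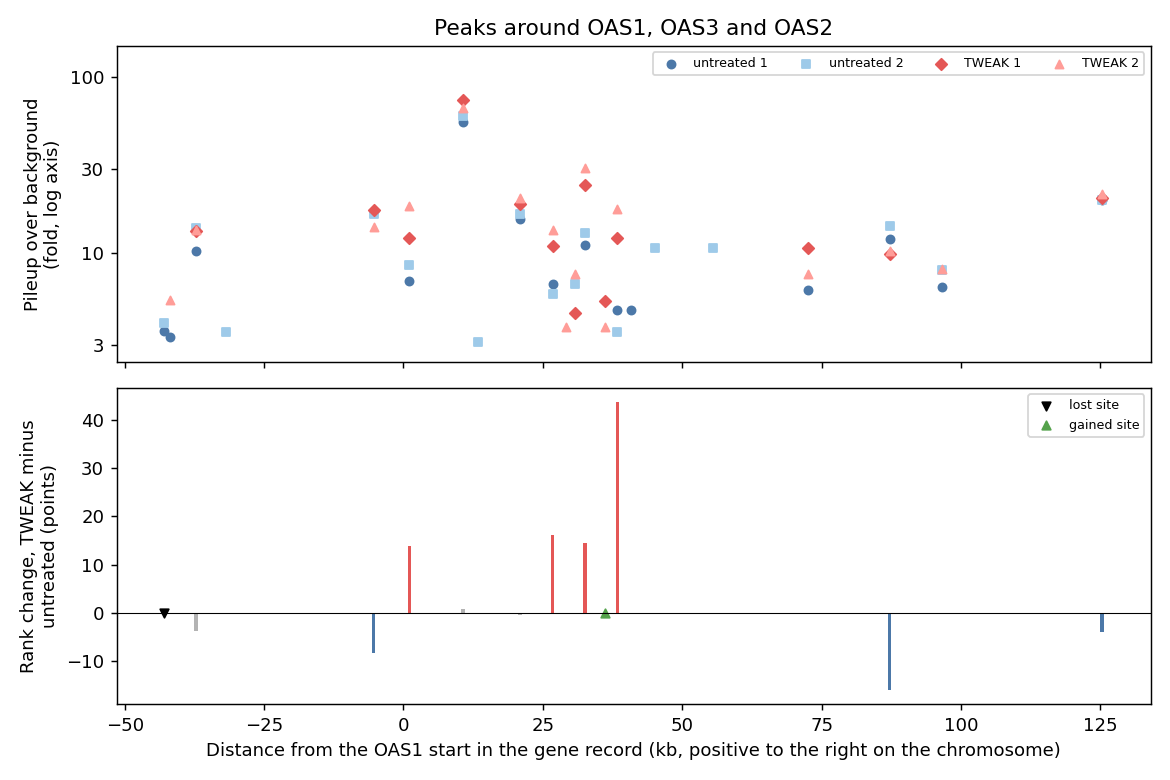
Top, pileup over background (log axis) of each peak around OAS1, OAS3 and OAS2, with 1 symbol per library, against distance from the OAS1 start in kb. The sites drawn lie from -43.0 to 125 kb, and those of the 26 sites that lie farther out are not drawn. Bottom, mean TWEAK minus mean untreated rank for sites in all 4 libraries (red, both TWEAK libraries higher; blue, both lower; grey, overlapping), where the 4 red bars rise by 13.8 to 43.7 points.

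The MX GTPases block viral nucleocapsids. The MX1 promoter ranked 81.3 and 77.3 in the untreated and 81.7 and 83.3 in the TWEAK libraries, higher in both by rank but overlapping on the 3 other scalings. MX2 had a weak promoter peak at 23.7 and 28.8 in the untreated libraries and at 32.5 in TWEAK replicate 1, with none in TWEAK replicate 2. A site in an MX2 exon ranked 56.4 and 68.5, then 77.0 and 79.5, and lay higher in both TWEAK libraries on all 4 scalings.

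The IFITM proteins and tetherin act on viruses at membranes, at entry and at release. IFITM3 ranked 57.5 and 56.4 in the untreated and 66.2 and 61.0 in the TWEAK libraries, a difference of 6.65 points that held on all 4 scalings. The site with the highest mean rank for IFITM1, which is also a promoter site of IFITM2, ranked 61.8 and 64.0, then 63.0 and 66.8. The site over the RefSeq start of IFITM1 ranked 58.4 and 59.3, then 63.8 and 57.3, overlapping by rank but higher in both TWEAK libraries on the 3 other scalings. IFITM2 ranked 58.4 and 70.0, then 71.2 and 59.8, and its groups overlapped. BST2, the gene for tetherin, had 2 promoter sites open in all 4 libraries. The site over its start, which holds ISRE-like and NF-κB matches, ranked 65.4 and 64.0, then 67.5 and 77.9, and lay higher in both TWEAK libraries on all 4 scalings. The stronger site 872 bp away ranked 83.1 and 83.0, then 80.6 and 81.0. It lay lower by rank and on both log2 scalings but overlapped on the rank among shared sites, and its raw fold over background had a ratio of means of 1.07.

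ISG15 is a ubiquitin-like protein, HERC5 its main ligase and USP18 the protease that removes it. The strongest ISG15 promoter site, which is shared with HES4 and lies 675 bp from an ISG15 start, ranked 95.3 and 95.5 in the untreated and 93.8 and 90.3 in the TWEAK libraries. Its pileup was 63.6- and 72.9-fold over background in untreated and 61.5- and 54.1-fold in TWEAK libraries, and it lay lower in both on all 4 scalings. Over the start of ISG15 that carries the sequence printed above, a peak ranked 81.7 and 86.8, then 86.5 and 87.3. The groups overlapped by rank and on both log2 scalings, and both TWEAK libraries lay higher on the rank among shared sites. USP18 ranked 82.4 and 83.0, then 84.5 and 85.0, and lay higher in both TWEAK libraries on all 4 scalings, although by 2.04 points only. HERC5 ranked 82.6 and 88.0, then 83.7 and 77.9, and HERC6 ranked 76.6 and 79.2, then 79.4 and 71.4, both overlapping by rank. HERC5 lay lower in both TWEAK libraries on both log2 scalings. A site over another HERC6 start ranked 63.3 and 71.4, then 78.1 and 69.2. That site overlapped by rank but lay higher in both TWEAK libraries on the 3 other scalings.

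The 50 kb on each side of ISG15 formed the largest block of sites in the set, with 89 of the 584. Of its 37 sites present in all 4 libraries, 22 (59.5%) ranked lower in both TWEAK libraries, against 35.4% of all shared sites, and 3 ranked higher. On all 4 scalings at once, 18 of the 37 lay lower and 2 higher, against 26.9% and 13.6% of all shared sites. Falls of 10 points or more were seen at 13 sites (35.1%, against 16% of all shared sites) and no rise of that size, against 7%. Of the 89 sites, 6 were lost and none gained, against 3.79% and 3.6% of all sites. For 4 of the 6 lost sites the distance to the nearest peak of a TWEAK library was 138, 204, 176 and 21 bp, and for the other two it was 1634 and 660 bp. The region also holds other genes, such as AGRN, NOC2L and HES4. Peaks in it numbered 69 and 65 in the untreated and 55 and 50 in the TWEAK libraries, and TWEAK replicate 2 was also the shallowest library. Raw fold was counted for ISG15, USP18, HERC5 and HERC6 together, with 55 shared sites. By rank 4 of the 55 were higher and 31 lower. By raw fold 12 (21.8%) were higher and 13 (23.6%) lower, against 34.8% and 12.2% of all shared sites.

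**Figure D3:**
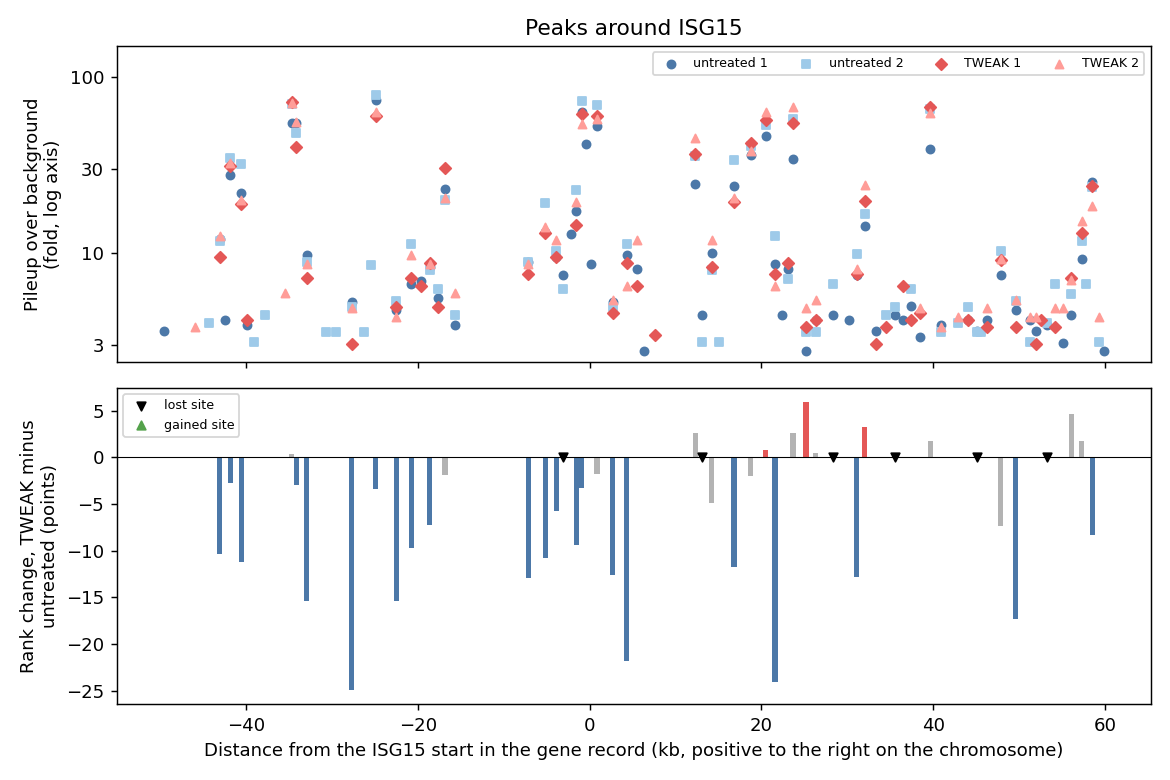
Top, pileup over background (log axis) of each peak within 50 kb of an ISG15 start, with 1 symbol per library, against distance from the ISG15 gene start in kb. Sites farther to the right than 59.8 kb are not drawn. Bottom, mean TWEAK minus mean untreated rank for the 37 sites in all 4 libraries, of which 22 are blue (both TWEAK libraries lower) and 3 red (both higher), with black triangles for the 6 lost sites.

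Among the other antiviral effectors, ISG20, an RNA exonuclease, ranked 95.9 and 96.5 in the untreated and 95.9 and 96.0 in the TWEAK libraries, overlapping by rank. SAMD9, an inhibitor of poxviruses, ranked 83.5 and 87.9, then 90.6 and 89.2, higher in both on all 4 scalings. Its neighbour SAMD9L had 1 weak promoter peak, at 32.5 in TWEAK replicate 1. RSAD2, which encodes viperin, and CMPK2 are divergent neighbours and share a promoter site that ranked 56.4 and 61.8, then 53.3 and 58.6. A weaker site over the RSAD2 start and a CMPK2 start ranked 27.2 and 22.8, then 32.5 and 27.3. That weaker site lay higher in both TWEAK libraries on all 4 scalings. A weak gained site with an ISRE-like match lay at another RSAD2 start, with ranks of 32.5 and 23 in the TWEAK libraries. Of the 3 gained sites within 1 kb of a start of the listed genes, only this site held an ISRE-like match. The others lay near starts of MX1 (ranks 6.62 and 31.2) and USP18 (32.5 and 34.6).

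Of the remaining interferon-induced genes, IFI6, a mitochondrial and endoplasmic reticulum protein, had the highest promoter rank at 93.8 and 92.4 in the untreated and 96.2 and 95.4 in the TWEAK libraries. Its pileup was 54.9- and 54.1-fold over background, then 77.1- and 80.1-fold, and the groups did not overlap on any scaling. IFI35 ranked 70.4 and 71.4, then 71.2 and 58.6, and its groups overlapped. IFI44L had a weak promoter peak at 6.15 in untreated replicate 1 and at 35.5 and 23 in the TWEAK libraries. XAF1, a pro-apoptotic factor, had 1 peak at 2.25 in TWEAK replicate 1. IFI27 had 1 at 32.5 in the same library, the same whole-number pileup as at SAMD9L.

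Among the promoter sites of the 26 genes open in all 4 libraries, those of OAS3, IFITM3, SAMD9, IFI6 and USP18 lay higher in both TWEAK libraries on all 4 scalings, and those of IFIT1 and ISG15 (the site shared with HES4) lay lower on all 4. Counted over every site within 1 kb of a start, 44 of 86 were present in all 4 libraries. Of these 44, 10 (22.7%) ranked higher in both TWEAK libraries and 10 ranked lower. The balance depends on the scaling, with 15 higher and 8 lower on the rank among shared sites, and 22 higher (50%) and 2 lower (4.55%) by raw fold, against 28.5% and 9.26% of protein-coding promoter sites by raw fold. On all 4 scalings at once, 9 lay higher (20.5%) and 7 lower (15.9%), against 13.6% and 26.9% of all shared sites. The 9 included the 5 sites just named, the start sites of OAS1 and BST2, and a further promoter site of STAT2. The other higher site lay over the RSAD2 start and a CMPK2 start. Besides those of IFIT1 and ISG15, the lower sites included further promoter sites of IRF1, IFIH1 and IRF7. The background by rank over all shared sites was 15.8% higher and 35.4% lower, and over all protein-coding promoter sites it was 10.2% and 36.4%. Of the 18 promoter sites with an ISRE-like match in their best peak, 7 ranked higher (38.9%) and 3 lower. Of the 26 without one, 3 ranked higher (11.5%) and 7 lower. Over all protein-coding promoter sites, 13.9% with and 10.0% without such a match ranked higher. Beyond 1 kb of the starts of the 34 genes, 9.52% of sites with an ISRE-like match ranked higher and 47.6% lower, against 11.8% and 45.3% of those without. At their promoter sites, 5 of 14 with an NF-κB match ranked higher (35.7%) and 2 lower, and 5 of 30 without one ranked higher (16.7%) and 8 lower, against 13.6% with and 9.31% without ranking higher over all protein-coding promoter sites. Sites are not replicates, so no test was run over them. The difference between promoter sites with and without an ISRE-like match was noticed in these values.

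Gained and lost sites were counted across all 584 sites. Sites called gained were those with peaks in the TWEAK lists, both of them, and in no untreated list, and 11 were found (1.88%), against 3.6% of all sites. Lost sites had the opposite pattern, and 21 were found (3.6%), against 3.79%. The lost share was above that of all sites at equal list size (4.63% against 3.59%) and within 100 kb (3.93% against 3.79%). The 6 lost sites around ISG15 and 4 around ISG20 made up 10 of the 21. Leaving out untreated replicate 1 or 2 or TWEAK replicate 1 or 2 loosens the rule and gave 27, 28, 44 and 58 gained sites. The gained share of the set stayed under that of all sites each time, at 4.93, 5.25, 7.97 and 10.4% against 6.54, 7.63, 9.09 and 11.6%. The same omissions gave 85, 68, 43 and 36 lost sites (15.5, 12.8, 7.79 and 6.44%, against 15.9, 11.5, 9.29 and 6.56%).

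A site was called strong when it ranked above 50 in both libraries that had it, and there was 1 strong gained site, against a background of 0.591%, and 1 strong lost site, against 0.21%. The strong gained site lay between genes 17.0 kb from a SAMD9L start, at chr7:93165381-93165893, and ranked 70.0 and 64.1 in the TWEAK libraries. Its pileup was 16.7- and 16.8-fold over background, and no untreated peak lay closer than 10981 bp. The strong lost site lay between genes 11.8 kb from an IFI6 start, at chr1:27659862-27660381, and ranked 82.4 and 85.1 in the untreated libraries. Its pileup was 25.4- and 32.2-fold over background, and the nearest TWEAK peak was only 569 bp away. Each best peak held 1 NF-κB match, shown in capitals on the plus strand of hg38.
Gained site near SAMD9L, chr7:93165677-93165796: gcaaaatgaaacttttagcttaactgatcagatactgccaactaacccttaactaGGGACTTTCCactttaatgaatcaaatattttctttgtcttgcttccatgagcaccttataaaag
Lost site near IFI6, chr1:27659924-27660043: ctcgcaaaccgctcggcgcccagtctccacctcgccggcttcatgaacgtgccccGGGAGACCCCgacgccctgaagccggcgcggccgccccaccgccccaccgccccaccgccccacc

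The 268 sites present in all 4 libraries made up 45.9% of the set, against 42.8% of all sites. Of these, 17 (6.34%) rose by 10 points or more with no overlap between groups, against 7% of all shared sites, and 47 (17.5%) fell, against 16%. Counted without a minimum change, 36 (13.4%) ranked higher in both TWEAK libraries, against 15.8%, and 112 (41.8%) lower, against 35.4%. On the rank among shared sites, 62 (23.1%) were higher and 82 (30.6%) lower, against 23.3% and 28.0%. By raw fold the split turned, with 98 (36.6%) higher and 28 (10.4%) lower, against 34.8% and 12.2%. On all 4 scalings at once, 33 (12.3%) lay higher and 81 (30.2%) lower, against 13.6% and 26.9% of all shared sites. Without the sites around ISG15, 90 of 231 (39.0%) ranked lower and 34 (14.7%) fell by 10 points or more.

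**Figure D4:**
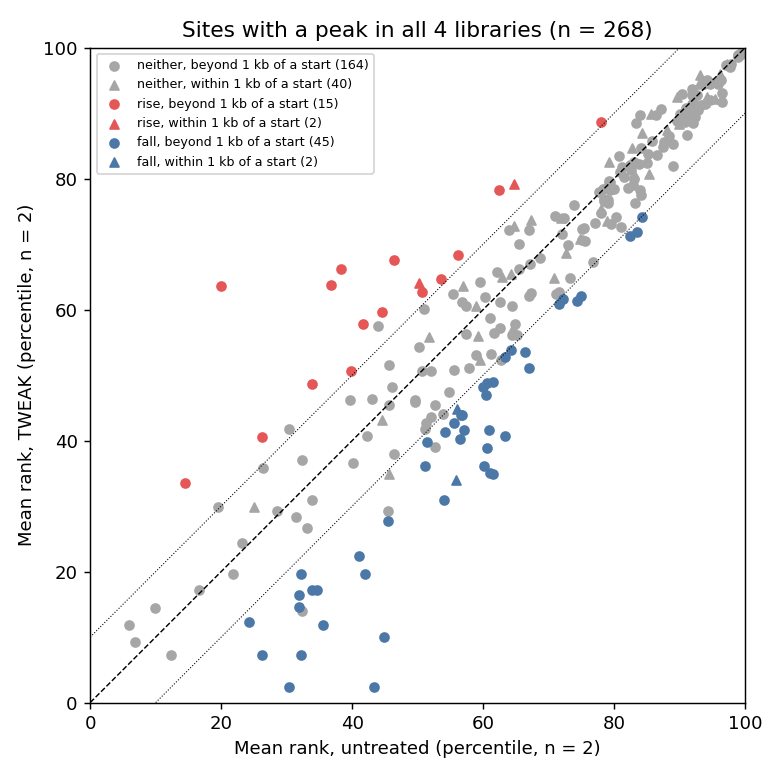
Mean TWEAK rank against mean untreated rank (percentiles, 2 libraries each) for the 268 sites in all 4 libraries, with triangles for sites within 1 kb of a start and dotted lines at a difference of 10 points. Of the sites past the lines without overlap between groups, 17 lie above and 47 below.

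By rank within the list, the largest rises after the OAS3 intron site were at distal sites or at promoters of neighbours. At the IL23A promoter, 8.68 kb from a STAT2 start (chr12:56338557-56339398), ranks were 23.7 and 53.0 in the untreated and 58.2 and 74.4 in the TWEAK libraries. IL23A encodes a subunit of the cytokine IL-23, and the site holds NF-κB and AP-1 matches. At the FAP promoter, 23.1 kb from an IFIH1 start (chr2:162244472-162245006), ranks were 40.2 and 33.5, then 67.5 and 59.8. A site between genes 16.6 kb from an IFI6 start (chr1:27654998-27655572), with ISRE-like and NF-κB matches, ranked 44 and 48.9, then 68.2 and 66.8. A site 21.2 kb from an IFITM3 start (chr11:350644-351286) ranked 6.15 and 22.8, then 32.5 and 34.6.

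The 5 largest falls by rank within the list were mostly at weak peaks. The largest was at an intron site 1.34 kb from an alternative IRF1 start (chr5:132510058-132510652), with ranks of 40.2 and 46.5 in the untreated and 2.25 and 2.52 in the TWEAK libraries, close to the weakest peak of each list. The site next in size lay 13.6 kb from an IFI44 start (chr1:78676303-78676846) and ranked 45.8 and 43.8, then 2.25 and 17.9. The PGGHG promoter, 12 kb from an IFITM2 start (chr11:291089-291653), ranked 27.2 and 33.5, then 2.25 and 2.52. A site 25.1 kb from an IFI6 start (chr1:27646540-27647068) ranked 66.6 and 56.4, then 46.8 and 23. The TMPRSS2 promoter, 16.2 kb from an MX1 start (chr21:41468059-41468801), ranked 60.2 and 61.8, then 42.8 and 27.3. TMPRSS2 encodes a serine protease that activates glycoproteins of respiratory viruses.

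Per library, the peaks within 50 kb of the 34 genes numbered 402 and 421 in the untreated and 399 and 367 in the TWEAK libraries. The difference was -28.5 peaks (411.5 ± 13.4 against 383 ± 22.6, SD, n = 2 each), and the exact two-sided permutation test gave p = 0.33, the smallest that 2 against 2 libraries allow. As a share of all peaks counted as sites, the set held 0.198 and 0.189% in the untreated and 0.188 and 0.193% in the TWEAK libraries (exact permutation p = 0.667). The median rank of the 268 shared sites was 69.7 and 70.0 in the untreated and 69.7 and 66.8 in the TWEAK libraries, a difference of -1.55 points (exact permutation p = 0.667, n = 2 each). Over all shared sites the same difference was -1.81 points. With 2 libraries a group, this exact test cannot pass the 0.05 threshold.

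Another 30 genes of the interferon pathway, none of them in the list of 34, were read in the same way for context and gave 664 sites. The receptor, JAK, sensing and negative regulator genes among them each had a promoter peak in all 4 libraries, including IFNAR1, IFNAR2, JAK1, TYK2 and MAVS. Of the interferon genes themselves, IFNL1, an interferon-lambda gene, had a promoter peak in all 4 libraries. IFNB1, IFNA1, IFNA2, IFNE, IFNK and IFNG had none in any. The promoter of CGAS, the sensor of cytosolic DNA, was singled out after its values were seen, with ranks of 10.3 and 43.8 in the untreated and 60.2 and 58.6 in the TWEAK libraries. Of the 664 sites, 30 were gained (4.52%, against 3.6% of all sites) and 17 lost (2.56%, against 3.79%). Among them 7 of the gained were strong (1.05%, against 0.591%) and none of the lost were, against 0.21%. The strong gained sites lay near IFNGR1, JAK1, TBK1, IRF3, SOCS1, SOCS3 and IRF2, 1 each. Of the 299 shared sites of these genes, 29 (9.70%) rose and 28 (9.36%) fell by 10 points or more, against 7% and 16% of all shared sites. Gained sites thus made up 4.52% around the pathway genes and 1.88% around the interferon-stimulated genes, a difference that was not tested because sites are not replicates.

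**Figure D5:**
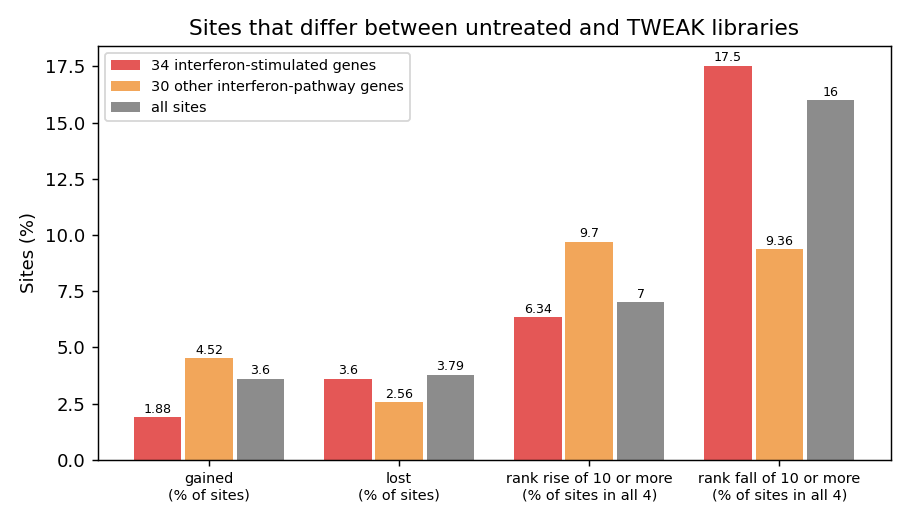
Percent of sites gained or lost, and percent of sites in all 4 libraries that rose or fell by 10 rank points or more without overlap between groups, for the 34 interferon-stimulated genes (red), 30 other interferon-pathway genes (orange) and all sites (grey). The gained share is 1.88% in red, 4.52% in orange and 3.6% in grey.

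In the best peaks of all 584 sites, an ISRE-like match was present in 9.42%, against 6.56% of all sites, and an NF-κB match in 19.7%, against 13.2%. At sites within 1 kb of a start of the 34 genes the ISRE-like share was 25.6%, against 4.88% of all protein-coding promoter sites. Genome-wide, 26.7% of gained and 10.6% of lost sites held an NF-κB match. Around the interferon-stimulated genes such a match was found at 2 of the 11 gained sites and at 8 of the 21 lost sites, 5 of these 8 around ISG15. Among shared sites that rose by 10 points or more, 5 of 17 (29.4%) held one, against 24.7% genome-wide. Among those that fell, 10 of 47 (21.3%) did, against 8.93%. A match was held by 59 of all 268 shared sites of the set, against 13.5% genome-wide, and falls made up 16.9% of the set's shared sites with a match and 17.7% of those without.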

How the data were processed

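ATAC-seq peak lists of SKBR3 cells were analysed, 2 untreated and 2 TWEAK, grouped by the sample titles. According to the submitters' processing notes and the methods, reads were processed with Trimmomatic, Bowtie2 (hg38), Picard and MACS2. Versions and settings are not given in the sources used here. The value deposited with each peak is not named and was read as a −log10 p-value, since 100% of the values matched a Poisson tail for a whole pileup within a relative 0.0001. It depends on depth, so ranks within a list and the pileup over its background were used. DiffBind, which needs reads, was not run.

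Peaks on chromosomes 1 to 22 and X were merged and compared by presence, rank and exact permutation over libraries with Python 3.11.15, numpy 2.4.6, pandas 2.3.3 and scipy 1.17.1. The steps were tested on simulated lists. Gained, lost, rising and falling sites follow the definitions in the report. Same-numbered libraries did not deviate together, so numbers were not used as pairs. The methods state that cell line work was repeated on separate days, but no library is assigned to a day. Named were the promoter site of each gene, strong gained or lost sites, the 5 largest rises and the 5 largest falls, and pathway genes with an incomplete promoter or a strong gained or lost site. Genes and lists were chosen with earlier results of these data known, and the other sites named were chosen after their values were seen. Alternatives covered distance, starts, thresholds, list size, merging, scaling, pairing and omitted libraries. A marker and a pathway gene are not reported here.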

Additional observations from a re-analysis of the deposited data

How the results depend on the processing

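Against 11 gained and 21 lost sites, a distance of 10 kb gave 6 and 9, a distance of 100 kb gave 20 and 41, and requiring no neighbouring peak within 500 bp gave 7 and 13. Only peaks with a deposited value of at least 5 gave 13 lost sites (3.15%, against 3.36% of all sites). Leaving out 1 library at a time gave 27 to 58 gained and 36 to 85 lost sites, because the rule then needs fewer lists. The difference in peaks per library (-28.5) was negative under every alternative run, at -6.5 for 10 kb, -69.5 for 100 kb, -3 for a deposited value of at least 5 and -8 at equal list size. It was -39 and -18 without untreated replicate 1 or 2, and -45 and -13 without TWEAK replicate 1 or 2. Over all sites the difference in peaks was -10987 in the main run. For a deposited value of at least 5 it was 978.5 over all sites, at equal list size 118, and without TWEAK replicate 2 23.5. The median rank difference of shared sites (-1.55) turned to 0.78 when ranks were taken among shared sites, 0.0011 on the centred log2 value and 0.0046 on the centred log2 fold (the last chosen after seeing the data), and kept its sign under the others. Without untreated replicate 1 or 2 it was -3.23 and -0.69, and without TWEAK replicate 1 or 2 it was -2.28 and -0.40. With the replicate block, the exact sign-flip permutation of the 2 pairs gave p = 0.5 for the peak difference of -28.5 and p = 1 for the rank difference of -1.55. Same-numbered libraries correlated at -0.0061 to 0.035 in their deviations, a value that gives no pairing. The check over 4 scalings and the counts without the sites around ISG15 were also chosen after seeing the data. With 2 libraries a group and unequal depth, absence from a list means only that no peak passed its threshold.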
